A study of Mus musculus with 16 samples.

Results

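The comparison was between the livers of 4 female LKO mice and 4 female floxed mice, 8 of the 16 libraries of the series, taken from the count table that holds LKO mouse L2392 and without any library of the male table. The floxed mice carried loxP-flanked (floxed) alleles of Matr3 and no stated Cre. The LKO mice carried the same alleles and Albumin-Cre, and were littermates of floxed mice per the labels. From 7 weeks of age all 8 females were fed for 16 weeks a diet in which fat gave 60% of the energy, and they fasted for 12 hours before the liver was taken. LKO 5, 6, 7 and 8 were mice L2392, L2390, L2388 and L2399, and floxed 1, 2, 3 and 4 were mice L2417, L2387, L2385 and L2416, with 1 library of poly(A) RNA from each. The levels below are CPM, counts scaled to library size and then between libraries. A gene was called when its Benjamini-Hochberg adjusted p in the quasi-likelihood test of edgeR was under 0.05, two-sided, over 15432 genes tested.

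Matrin-3, the product of Matr3, is an abundant protein of the inner nuclear matrix that binds RNA and DNA, and it takes part in splicing and in the nuclear retention and stability of transcripts. The albumin promoter is active in hepatocytes, the cells that make most plasma proteins and carry out most drug, bile acid and lipid metabolism of the liver. Endothelial, stellate and immune cells of the liver do not use that promoter and keep intact alleles.

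Each library held between 30495505 and 33689974 counts, and no pair of libraries in a group agreed within sampling noise (chi-square per degree of freedom of at least 20.9). Xist was abundant in all 8 libraries, as in females. The summed level of the hepatocyte markers lay between 53400 and 68600 CPM in the LKO group, below the floxed range of 74100 to 83100 CPM. Of the 10 markers tested, however, 7 had a log2 fold change (LKO minus floxed) above 0. The median was 0.26, and 3 were called higher and 2 lower. The lower sum was therefore not shared by most members of the list. A pair of libraries stood apart. On the first principal component, which held 47.3% of the variance, floxed 1 to 3 scored -38.7, -37.7 and -32.7 and floxed 4 scored -10.3, while LKO 5, 6 and 8 scored 40.8, 31.6 and 40.4 and LKO 7 scored 6.58. Floxed 4 was the floxed library closest to the LKO group in 57.4% of the called genes, and LKO 7 the LKO library closest to the floxed group in 61.1%.

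**Figure D1:**
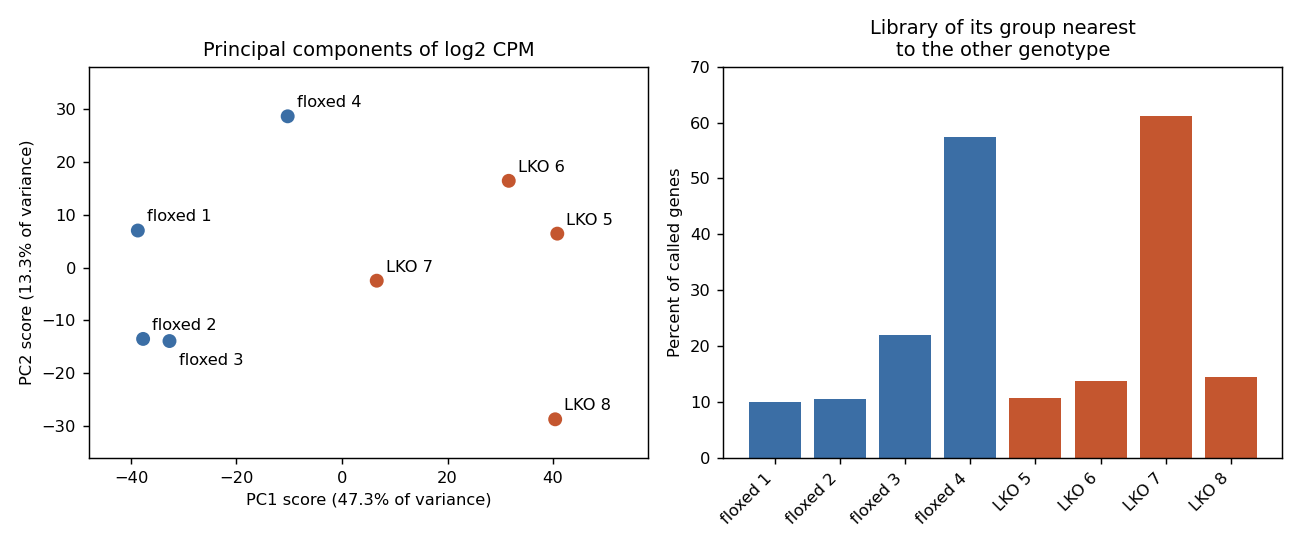
Left, scores of the 8 libraries on the first and second principal components of log2 CPM (blue floxed, orange LKO). Right, for each library, the percent of the 1433 called genes in which it was the library of its group closest to the other genotype. Floxed 4 (57.4%) and LKO 7 (61.1%) lay between the other libraries on the first component.

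The targeted gene did not overlap between the groups. Matr3, identifier ENSMUSG00000037236, lies on chromosome 18 of mm10 from 35562138 to 35593835 (plus strand). It measured 52.9, 64.7, 56.8 and 61.0 CPM in floxed 1 to 4 and 40.3, 37.1, 37.8 and 38.8 CPM in LKO 5 to 8. The LKO mean was 65.4% of the floxed mean (log2 fold change -0.61, SE 0.08, edgeR adjusted p = 0.00437). An exact permutation test over the 70 regroupings gave p = 0.0286, two-sided, which is its smallest possible value. Counts are per gene, so reads of deleted and retained exons could not be told apart. In bulk liver, fewer cells of a type and less RNA per cell cannot be told apart either.

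Of the 15432 genes tested 1433 were called (9.29%). Of these, 685 rose (4.44% of genes tested) and 748 fell (4.85%), among them 211 that rose (1.37%) and 257 that fell (1.67%) by at least 2-fold. The shares of 4.44% higher and 4.85% lower are the background for the gene lists below. The groups did not overlap in 1234 of the called genes and in 2458 of all genes tested (15.9%). With library totals alone as scaling, 449 rose and 1240 fell. The number of calls moved with the libraries in the fit. It was 396 on omission of floxed 1, 475 on omission of floxed 2, 666 on omission of floxed 3, 509 on omission of LKO 5, 622 on omission of LKO 6 and 685 on omission of LKO 8, but 2010 on omission of floxed 4, 2300 on omission of LKO 7 and 3028 without both of these. Floxed 4 and LKO 7 were singled out for joint omission in these same data, by their intermediate scores on the first component. Their joint omission removes intermediate libraries, so more calls can be expected from the choice itself. Counts without both, here and in the lists below, therefore add no evidence for a list. In all, 339 calls (160 higher, 179 lower) held without any 1 library, and no called gene changed direction under any alternative. Genes named below held in all 8 omissions unless a loss is given.

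**Figure D2:**
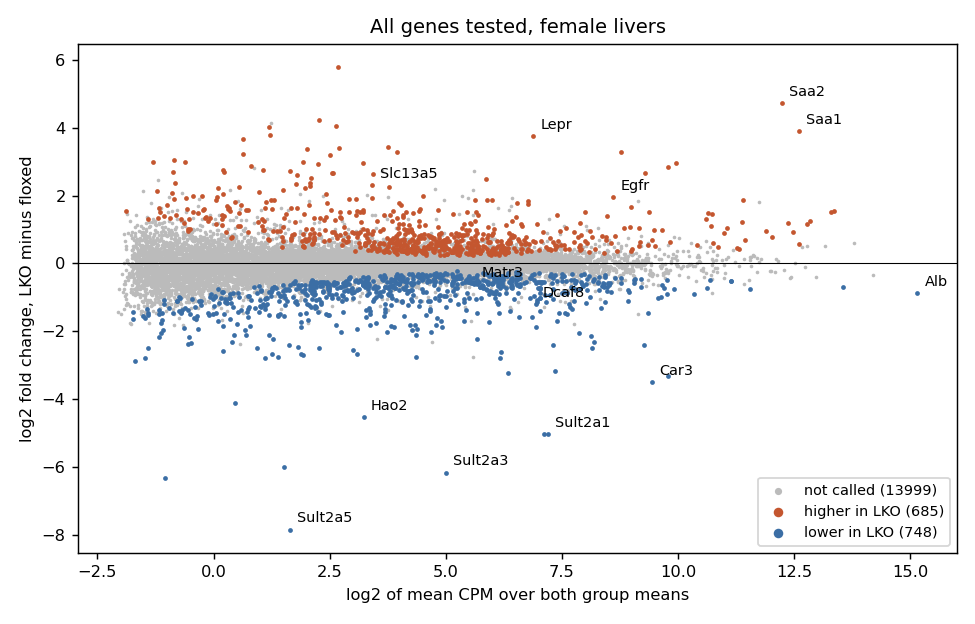
Log2 fold change (LKO minus floxed) of the 15432 genes tested against the log2 of their mean CPM, with 685 genes called higher in orange, 748 called lower in blue and the others in grey. Sult2a1, Sult2a2, Sult2a3 and Sult2a5 lie lowest, and Saa1, Saa2 and Lepr are among the highest of the abundant genes.

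Dcaf8 had the smallest p of all genes. Its product brings substrates to a cullin-based ubiquitin ligase. It measured 176, 178, 170 and 160 CPM in floxed 1 to 4 and 73.3, 76.8, 72.2 and 74.4 CPM in LKO 5 to 8 (log2 fold change -1.21, SE 0.07, edgeR adjusted p = 0.000116). Its LKO values lay within 5 CPM of each other, LKO 7 included, although for most called genes LKO 7 was the LKO library closest to the floxed group. Hnf4aos, an antisense transcript of the Hnf4a locus, went from 5.82 ± 0.547 to 1.59 ± 0.263 CPM (SD, n = 4 each; edgeR adjusted p = 0.000899). Mgmt, a DNA repair methyltransferase, went from 25.3 ± 2.84 to 10.9 ± 1.84 CPM (SD, n = 4; edgeR adjusted p = 0.00322). Further tight falls were those of Cpq, a carboxypeptidase (-0.66, SE 0.07), Agmo, the monooxygenase that cleaves ether lipids (-0.57, SE 0.07), and Ltbp4, a binding protein of latent TGF-beta (-1.10, SE 0.13). No overlap between the groups was a condition of the rule that named these 6 genes. Hnf4a itself rose from 596 ± 60.0 to 855 ± 86.1 CPM (SD, n = 4; edgeR adjusted p = 0.023), a call lost on omission of floxed 1, floxed 3, LKO 5 or LKO 8 (adjusted p by edgeR up to 0.0722). Hnf4a and Hnf4aos overlap on opposite strands, and since the strand setting of the counting is not given in the sources used here, reads of one could be counted for the other.

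Among the rises with the smallest p, 3 concerned transport and receptor genes of the cell surface. Slc13a5, the citrate importer of the hepatocyte membrane, measured 3.95, 2.91, 3.40 and 4.15 CPM in floxed 1 to 4 and 17.1, 26, 15.2 and 13 CPM in LKO 5 to 8 (log2 fold change 2.31, SE 0.22, edgeR adjusted p = 0.00131). Kcnt2, a sodium-activated potassium channel, went from 1.26 ± 0.462 to 7.25 ± 1.62 CPM (SD, n = 4; edgeR adjusted p = 0.00234). Egfr, the epidermal growth factor receptor and a major receptor kinase of hepatocytes, measured 160, 138, 119 and 215 CPM in floxed and 742, 785, 504 and 437 CPM in LKO livers (log2 fold change 1.97, SE 0.23, edgeR adjusted p = 0.00367). As the naming rule required, the lowest LKO value of Egfr was above the highest floxed value, that of floxed 4. Nlrp12, a receptor that restrains inflammatory signalling, measured 41.3, 39.8, 44.5 and 64.5 CPM against 202, 134, 127 and 220 CPM. Gadd45g, a stress-induced regulator of growth arrest, went from 17.7 ± 3.70 to 98.6 ± 45.8 CPM (SD, n = 4). Smaller rises with little spread were those of the endocytic adaptor gene Eps15l1 (0.61, SE 0.07), the endonuclease subunit gene Eme2 (0.72, SE 0.08), the protease inhibitor gene A2ml1 (0.97, SE 0.12) and the imprinted gene Peg3 (1.12, SE 0.13). Gal3st1 (1.33), which encodes a glycolipid sulfotransferase, and the connexin gene Gjc3 (1.86) also rose.

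**Figure D3:**
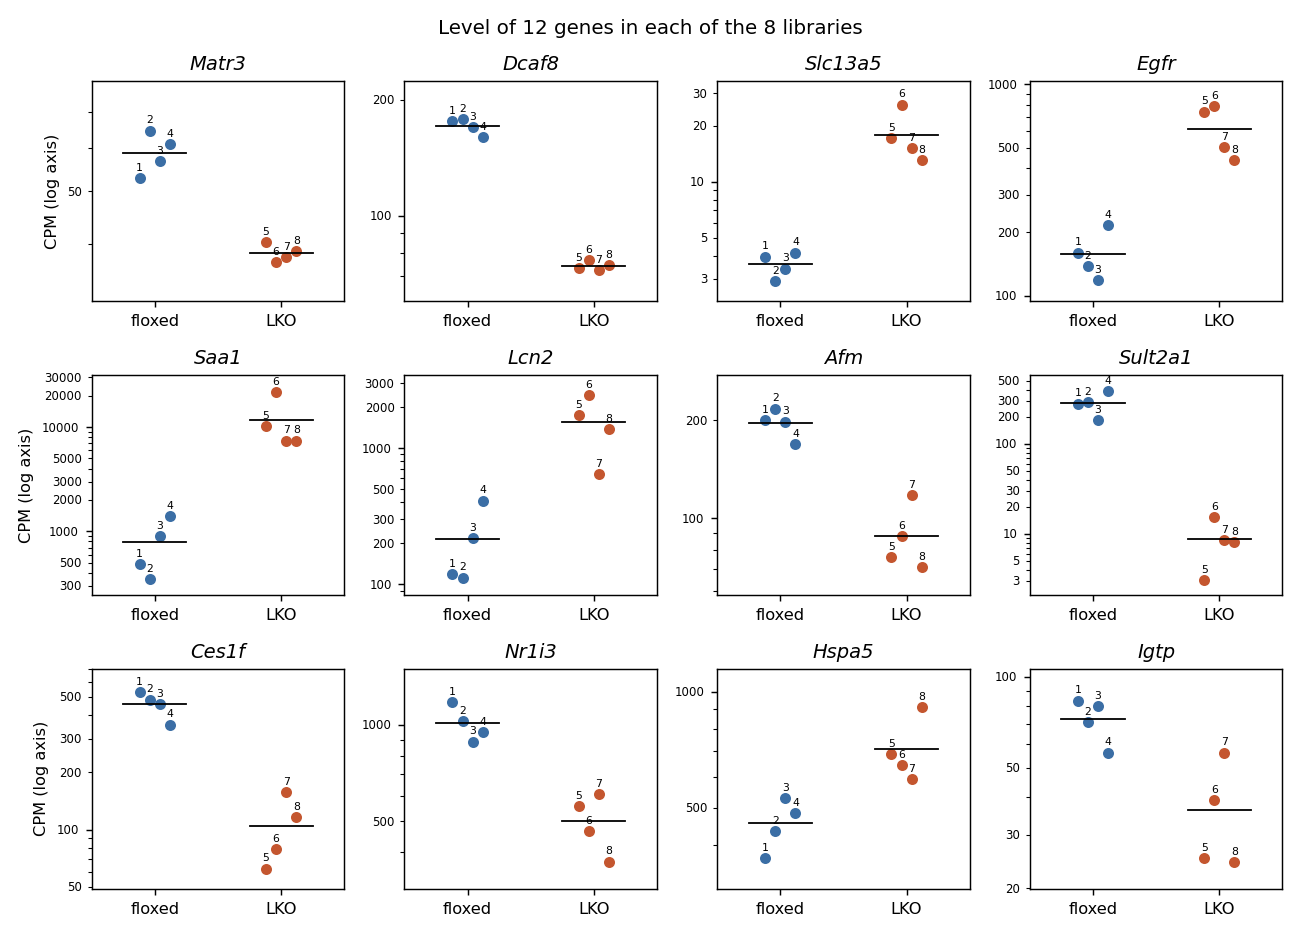
CPM of 12 genes in each library on log axes, with the library number above each point and a bar at the group mean. Dcaf8 and Matr3 separate the groups with little spread, while for Lcn2, Afm, Ces1f and Igtp floxed 4 and LKO 7 lie nearest to the other group.

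Large fold changes were also found in genes of low level. Among the 25 largest rises by rule were Igdcc4 (log2 fold change 4.05), Scara5 (3.79), a ferritin receptor, Dnaic1 (3.36), an axonemal dynein chain, Syt12 (2.95), a synaptotagmin, Treh (2.75), the disaccharidase trehalase, and Fst (2.22), which encodes follistatin, a secreted antagonist of activins. Follistatin measured 1.18, 1.29, 1.98 and 1.07 CPM in floxed 1 to 4 and 7.35, 9.19, 3.45 and 5.78 CPM in LKO 5 to 8, with LKO 7 lowest of the LKO group. Mup7 (4.03) and Ppp1r3g (3.43), which encodes a glycogen-targeting phosphatase subunit, lost the call with limma-voom only (adjusted p = 0.0588 and 0.0566). Adcy1 also lost it with limma-voom (0.0717). Without floxed 1 the calls of Adcy1 (4.22), Crybb3 (2.98), Ccdc120 (2.66) and Slco1a1 (2.37), an organic anion importer, were lost (edgeR adjusted p = 0.0511, 0.0536, 0.0519 and 0.0597). Fam222a (2.59) lost it on omission of floxed 1, 2 or 3 or LKO 6 (up to 0.0775) and with limma-voom (0.0746). Npnt (2.35) lost it on omission of floxed 1, 2 or 3, LKO 6 or LKO 8 (up to 0.109), with limma-voom (0.0713) and with robust dispersion (0.0691).

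Among the 25 largest falls by rule were those of Hao2, a hydroxyacid oxidase (-4.52), Car3, a carbonic anhydrase (-3.50), Dsg1c, a desmosomal cadherin (-2.69), and Gbp10, a guanylate-binding protein (-2.66). Car3 measured 1590, 1590, 1390 and 564 CPM in floxed 1 to 4 and 38.5, 78.4, 254 and 84.2 CPM in LKO 5 to 8. Floxed 4 was thus the lowest of its group and LKO 7 the highest of its own, without the overlap that the naming rule excluded. Acot3 (-2.40, SE 0.40) and Acot4 (-1.17, SE 0.23), adjacent genes of peroxisomal acyl-CoA thioesterases, both fell, Acot3 from 267 ± 152 to 50.6 ± 22.4 CPM (SD, n = 4). Tk1 (-2.11), encoding thymidine kinase, lost the call on omission of floxed 1, floxed 2, LKO 5 or LKO 6 (adjusted p by edgeR up to 0.0682), and likewise with robust dispersion (0.0559), and its neighbour Afmid (-2.01), an enzyme of kynurenine formation, on omission of floxed 1 or LKO 5 (up to 0.0538). Cyp2g1 (-2.79) lost it on omission of floxed 1, floxed 2, LKO 5 or LKO 6 (up to 0.0681).

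Positive acute-phase genes, which encode the plasma proteins that the liver secretes in larger amounts during inflammation, had the largest share of members called higher among the lists with at least 11 tested members. Of 24 tested members 20 rose and 0 fell (background 4.44% higher), with a median log2 fold change of 1.25 against 0.001 over all genes. Lcn2, the iron-siderophore binder lipocalin-2, measured 119, 112, 219 and 411 CPM in floxed 1 to 4 and 1740, 2460, 646 and 1380 CPM in LKO 5 to 8. Apcs, serum amyloid P, measured 146, 116, 152 and 275 CPM against 1240, 1790, 465 and 839 CPM. Floxed 4 was the highest floxed library and LKO 7 the lowest LKO library for both genes, without the overlap that the naming rule excluded. The fibrinogen chain genes Fga (1.24, SE 0.21), Fgb (1.16, SE 0.18) and Fgg (1.19, SE 0.21) rose by similar amounts, as did Crp (1.08, SE 0.16), C-reactive protein, and Itih3 (1.22, SE 0.18), an inter-alpha-trypsin inhibitor chain. The haem and haemoglobin binders Hpx and Hp went from 5340 ± 1590 to 15600 ± 5110 CPM and from 5210 ± 1140 to 14800 ± 5750 CPM (SD, n = 4), and Hp lost its call on omission of floxed 1 (edgeR adjusted p = 0.0509). The protease inhibitor genes Serpina3n (1.45, SE 0.25) and Serpina3k (0.97, SE 0.18) rose as well, as did Orm1 (1.86, SE 0.33), an orosomucoid. Cp (1.04), ceruloplasmin, lost the call on omission of floxed 1, floxed 2 or LKO 5 (up to 0.0602). Orm2 (2.95) and Itih4 (0.94) lost it on omission of floxed 1, 2 or 3 or LKO 5, 6 or 8 (up to 0.103 and 0.101), and Orm2 also with robust dispersion (0.0939).

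Saa1 and Saa2, the serum amyloid A genes, lie head to head on chromosome 7. Saa1 measured 485, 346, 907 and 1400 CPM in floxed 1 to 4 and 10300, 21500, 7420 and 7410 CPM in LKO 5 to 8. Saa2 measured 225, 122, 418 and 649 CPM against 7640, 18700, 6330 and 4710 CPM. Their highest floxed value was in floxed 4 and their highest LKO value in LKO 6. The 250 bases before each start, from RefSeq on GRCm38.p6, are shown because the 2 genes moved together and their windows are near copies (238 of 249 aligned bases identical, 95.6%). How alike the transcripts of the 2 genes are was not measured. Genes with near-identical transcripts can share reads, so the split of counts between Saa1 and Saa2 is uncertain.
Saa1 (chr7:46742981-46743230, minus strand): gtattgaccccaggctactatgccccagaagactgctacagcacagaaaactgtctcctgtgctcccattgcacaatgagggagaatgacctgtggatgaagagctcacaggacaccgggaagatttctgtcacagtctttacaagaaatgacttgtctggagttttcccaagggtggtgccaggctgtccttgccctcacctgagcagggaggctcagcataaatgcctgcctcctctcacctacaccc
Saa2 (chr7:46751583-46751832, plus strand): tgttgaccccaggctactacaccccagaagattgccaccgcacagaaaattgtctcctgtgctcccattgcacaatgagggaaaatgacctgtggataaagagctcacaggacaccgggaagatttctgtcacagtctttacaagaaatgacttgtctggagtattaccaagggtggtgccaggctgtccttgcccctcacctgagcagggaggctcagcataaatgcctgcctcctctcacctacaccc
The motif TTCNNNGAA, which STAT factors bind, was searched on both strands in windows from 250 bases before to 50 bases after the start. It was found in 5 of the 18 acute-phase members with a window (27.8%) and in 9.55% of all 27025 genes with one, and not in these letters in Saa1 or Saa2. Of the 5 with a match 4 rose, and of the 13 without one 11 rose.

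Neutrophils also make Lcn2, and floxed 4 was the highest floxed library for their markers too, while the lowest LKO library was LKO 8. The summed level of the 13 listed neutrophil markers, tested or not, was 13.4 to 115 CPM in floxed and 31.4 to 145 CPM in LKO livers. Of the 12 tested markers none was called by edgeR with all 8 libraries, and all 12 had a log2 fold change above 0 (median 0.88). On omission of floxed 4, 8 were called, and on omission of LKO 7, 0. On omission of floxed 4 and LKO 7 together 10 were called higher. S100a8, a granulocyte calcium-binding protein, measured 2.90, 1.53, 2.96 and 23.4 CPM in floxed 1 to 4 and 22.2, 33.7, 13.3 and 6.68 CPM in LKO 5 to 8. Mpo, the granule peroxidase of neutrophil precursors, measured 0.156, 0.0589, 0.126 and 7.25 CPM against 4.66, 6.03, 1.35 and 0.711 CPM. Floxed 4 was therefore the highest library for Mpo. Acute-phase calls numbered 22 of 24 on omission of floxed 4 and LKO 7, and the part of these cells in the result was not tested.

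Hepatocyte cytokine receptors and their signal mediators also rose in part. Of 22 tested genes of leptin, interleukin-6 and STAT3 signalling 6 rose and 0 fell (median 0.29, background 4.44% higher). Lepr, the leptin receptor, had the largest change of the list and measured 12.0, 10.7, 6.33 and 35.8 CPM in floxed 1 to 4 and 384, 116, 86.0 and 291 CPM in LKO 5 to 8. Socs3, the feedback inhibitor of these receptors, measured 30.1, 29.5, 26.6 and 25.7 CPM against 65.0, 88.0, 52.8 and 49.8 CPM (log2 fold change 1.19, SE 0.17, edgeR adjusted p = 0.00579). Cebpd, a transcription factor induced by STAT3, went from 10.9 ± 1.80 to 32.0 ± 12.6 CPM (SD, n = 4), and lost its call on omission of floxed 1 (edgeR adjusted p = 0.0509). The receptor genes Il1r1 (1.24), Osmr (1.08) and Tnfrsf1a (0.64) were called with all 8 libraries. Osmr and Tnfrsf1a lost the call on omission of floxed 1, 2 or 3 or LKO 5, 6 or 8 (up to 0.114 and 0.101), and Il1r1 on omission of floxed 1, floxed 3 or LKO 5, 6 or 8 (up to 0.0833). Il1r1 and Osmr also lost it with robust dispersion (0.0648 and 0.0518), and Osmr with limma-voom (0.0747). Stat3 itself (0.35, SE 0.15, edgeR adjusted p = 0.167) and Il6st, the shared receptor subunit (0.24, SE 0.09, edgeR adjusted p = 0.129), were not called. The 6 calls became 2 on omission of floxed 1, 3 on omission of floxed 3 or LKO 5, 6 or 8, 10 on omission of LKO 7, and 11 higher and 2 lower on omission of floxed 4 and LKO 7.

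Plasma proteins that fall in inflammation changed in part. Of 18 tested negative acute-phase genes 5 fell and 1 rose (background 4.85% lower), while 11 had a log2 fold change above 0 and the median was 0.09. Afm, the vitamin E binder afamin, measured 200, 217, 198 and 169 CPM in floxed 1 to 4 and 76.2, 88.4, 118 and 70.8 CPM in LKO 5 to 8 (log2 fold change -1.15, SE 0.16, edgeR adjusted p = 0.00535). Pon1, the paraoxonase of high density lipoprotein, went from 1030 ± 86.5 to 627 ± 67.5 CPM (SD, n = 4; edgeR adjusted p = 0.00823). Alb measured 50000, 50000, 42700 and 46400 CPM against 26000, 17500, 30600 and 28800 CPM, the largest loss of counts of any gene by rule. Ttr (-0.75), transthyretin, and Serpina6 (-2.31), the glucocorticoid carrier of plasma, fell, and Ambp (0.70) rose. Serpina6 and Ttr lost the call on omission of floxed 1, 2 or 3 or LKO 5, 6 or 8 (edgeR adjusted p up to 0.113 and 0.101), Alb on omission of floxed 1, 2 or 3, LKO 5 or LKO 8 (up to 0.0898) and Ambp on omission of floxed 1, 2 or 3, LKO 5 or LKO 6 (up to 0.0884). Serpina6 also lost it with robust dispersion (0.0961). The 6 calls became 2 on omission of floxed 1, 2 or 3 or LKO 5, and 3 on omission of LKO 6 or LKO 8. Among the 10 largest losses of counts by rule, besides Alb, Cyp2a5, Car3, Ces1d and Gsta3, were those of mt-Co1 (-0.70), mt-Nd4 (-0.51), Aldh2 (-0.53), Adh1 (-0.71) and Sord (-0.90), the last 3 encoding dehydrogenases of acetaldehyde, alcohols and sorbitol. Of these 5 the first 4 lost the call on omission of floxed 1, 2 or 3 or LKO 5, 6 or 8 (up to 0.117, 0.12, 0.0901 and 0.0917), and Sord on omission of floxed 1, floxed 2 or LKO 6 (up to 0.0598).

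Complement is a cascade of plasma proteins, mostly from hepatocytes, that ends in the pore made by C5b to C9. Of 29 tested complement genes 6 rose and 1 fell (median 0.26, background 4.44% higher and 4.85% lower). The 3 chains of component C8 did not move alike. C8a measured 271, 348, 410 and 467 CPM in floxed 1 to 4 and 790, 946, 679 and 673 CPM in LKO 5 to 8, and C8b measured 90.4, 90.9, 99.1 and 95.6 CPM against 185, 217, 171 and 137 CPM. C8g measured 322, 320, 342 and 273 CPM against 168, 186, 282 and 187 CPM, and was called lower (-0.61, SE 0.16, edgeR adjusted p = 0.0405). The C8g call was lost on omission of floxed 1, 2 or 3 or LKO 5, 6 or 8 (up to 0.111). C3, the central component, had no overlap between the groups (11200 ± 1220 against 16900 ± 2890 CPM; SD, n = 4) and was not called (edgeR adjusted p = 0.0541). It was called with DESeq2 (0.000405), limma-voom (0.0375), no filter (0.0352) and robust dispersion (0.0399), and on omission of floxed 4 (0.0466) or LKO 7 (0.0323). The 7 calls became 3 on omission of floxed 1, 2 or 3 or LKO 5 or 6, 11 on omission of floxed 4 or on omission of LKO 7, and 12 higher and 4 lower without both.

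Of 24 tested coagulation and fibrinolysis genes 3 rose and 0 fell (background 4.44% higher and 4.85% lower). Pros1, protein S, a cofactor that limits clotting, went from 73.2 ± 4.72 to 117 ± 21.0 CPM (SD, n = 4; edgeR adjusted p = 0.0118), and Cpb2, an inhibitor of clot lysis, from 255 ± 25.6 to 442 ± 88.5 CPM (SD, n = 4; edgeR adjusted p = 0.0129). F2, prothrombin, measured 1900 ± 60.9 CPM against 2040 ± 107 CPM (SD, n = 4; edgeR adjusted p = 0.554). Calls of the list numbered 7 on omission of LKO 7, and 6 higher and 5 lower on omission of floxed 4 and LKO 7.

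Growth hormone acts on the liver through its receptor and STAT5, and the IGF binding proteins carry the growth factors made in response. Of 20 tested genes of this axis 3 fell and 1 rose (background 4.85% lower and 4.44% higher). Igfbp1, a binding protein repressed by insulin, measured 57.9, 69.9, 88.6 and 107 CPM in floxed 1 to 4 and 762, 498, 197 and 1720 CPM in LKO 5 to 8, a wide spread within the LKO group with LKO 8 highest and LKO 7 lowest. Igfbp5 moved the other way, from 17.4 ± 2.68 to 5.16 ± 1.90 CPM (SD, n = 4; log2 fold change -1.75, SE 0.24, edgeR adjusted p = 0.00579). Ghr, the growth hormone receptor, was called lower (-0.59, SE 0.14), and lost the call on omission of floxed 1, 2 or 3 or LKO 5, 6 or 8 (edgeR adjusted p up to 0.0955). Igf1 was not called (413 ± 72.1 against 498 ± 88.3 CPM; SD, n = 4; edgeR adjusted p = 0.298). The 4 calls became 2 on omission of floxed 1, floxed 2 or LKO 5, 6 or 8.

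Hepatokines are hormones secreted by hepatocytes. Of 22 tested 3 rose and 2 fell (background 4.44% higher and 4.85% lower). Enho, which encodes the peptide adropin, measured 35.1, 22.1, 14.3 and 31.4 CPM in floxed 1 to 4 and 91.1, 81.4, 64.9 and 59.0 CPM in LKO 5 to 8 (log2 fold change 1.53, SE 0.25, edgeR adjusted p = 0.00954), and Fst rose as given above. Fgf21, a hormone of fasting and stress, measured 18.4, 9.18, 5.89 and 32.7 CPM against 47.8, 35.0, 41.0 and 138 CPM. Its groups did not overlap, and it was not called (edgeR adjusted p = 0.0563). Angptl8, an inhibitor of lipoprotein lipase, was called lower (-1.60) and lost the call on omission of floxed 1, 2 or 3 or LKO 5, 6 or 8 (edgeR adjusted p up to 0.105) and with robust dispersion (0.0931). Gdf15, a stress hormone, was not called (27.6 ± 1.85 against 34 ± 16.1 CPM; SD, n = 4; edgeR adjusted p = 0.53). The 5 hepatokine calls became 2 on omission of floxed 1, floxed 3 or LKO 5, 6 or 8, 3 on omission of floxed 2, 9 on omission of floxed 4, 10 on omission of LKO 7, and 8 higher and 4 lower without both of the last.

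Genes for conjugation and hydrolysis of drugs, steroids and bile acids were called lower in several enzyme families. Sulfotransferases, which attach sulfate to steroids and bile acids, had 7 of 16 tested members lower and 2 higher (median -0.94, background 4.85% and 4.44%). Sult2a1 measured 280, 292, 183 and 382 CPM in floxed 1 to 4 and 3.06, 15.3, 8.52 and 8.13 CPM in LKO 5 to 8. Sult2a2 measured 252, 306, 263 and 252 CPM against 3.44, 14.9, 6.48 and 8.44 CPM, and Sult2a3 65.4, 65.2, 57.3 and 65.3 CPM against 0.313, 1.84, 0.270 and 1.14 CPM. LKO 6 was the highest of the LKO group in all 3 genes. Sult2a5 measured 5.29, 9.42, 7.21 and 2.95 CPM in floxed livers, was at 0 in LKO 5 and 6 and measured 0.0600 and 0.0309 CPM in LKO 7 and 8. Sult2a8, a bile acid sulfotransferase of mouse liver, changed less (-0.99), with a call lost on omission of floxed 1, 2 or 3 or LKO 5, 6 or 8 (edgeR adjusted p up to 0.0896). Sult3a1 and Sult3a2 rose in contrast, Sult3a1 from 88.5, 88.4, 122 and 66.2 CPM to 226, 240, 287 and 236 CPM (log2 fold change 1.44, SE 0.17, edgeR adjusted p = 0.00367), and Sult3a2 by 1.78 (SE 0.22). Near-identical members of the Sult2a, Ces1, Ugt1a, Cyp2 and Mup families can share reads, so the split within a family is uncertain.

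Carboxylesterases, which hydrolyse ester drugs and lipids, had 7 of 14 tested members lower and 0 higher (median -0.75, background 4.85% lower). Ces1f measured 526, 482, 459 and 356 CPM in floxed 1 to 4 and 62.3, 78.6, 158 and 116 CPM in LKO 5 to 8. Ces1d measured 1540, 1050, 678 and 879 CPM against 142, 131, 342 and 175 CPM. Both had LKO 7 highest of the LKO group. Ces1g (-1.49), Ces1e (-1.40, SE 0.20), Ces2c (-1.82, SE 0.33) and Ces2e (-1.02, SE 0.11) fell as well.

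UDP-glucuronosyltransferases couple bilirubin, steroids and drugs to glucuronic acid. Of the 17 tested genes of the list 9 fell and 0 rose (median -0.50, background 4.85% lower). The list includes enzymes that make the donor sugar. Ugt1a6a went from 23.7 ± 2.29 to 13.4 ± 2.86 CPM (SD, n = 4; edgeR adjusted p = 0.0106), and Ugp2, which makes UDP-glucose, from 367 ± 37.3 to 249 ± 18.4 CPM (SD, n = 4; edgeR adjusted p = 0.012). Ugt1a1, the bilirubin-conjugating enzyme, was called lower (-0.56) and lost the call on omission of floxed 1, floxed 2 or LKO 5 (up to 0.0775). The Ugt1a genes share their last exons, so they are not independent. The 9 calls became 2 on omission of floxed 1 or LKO 5, 4 on omission of floxed 2 and 5 on omission of floxed 3 or LKO 8. Glutathione transferases and targets of the oxidant sensor NRF2 had 9 of 30 members lower and 0 higher (background 4.85% lower). Gsta3 led them (958 ± 195 against 345 ± 149 CPM, SD, n = 4, edgeR adjusted p = 0.014). Nqo1, a defining NRF2 target, was not called (-0.16, SE 0.15, edgeR adjusted p = 0.527). These 9 calls became 1 on omission of floxed 1, floxed 2 or LKO 5 or 6, 2 on omission of floxed 3 or LKO 8, 14 on omission of LKO 7, and 3 higher and 16 lower on omission of floxed 4 and LKO 7.

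Cytochromes P450 of family 2 oxidise drugs and steroids. Of 33 tested Cyp2 genes 10 fell and 0 rose (median -0.59, background 4.85% lower). Cyp2a5 measured 2010, 2110, 1310 and 923 CPM in floxed 1 to 4 and 106, 125, 368 and 43.4 CPM in LKO 5 to 8. Cyp2a22 measured 344, 386, 251 and 189 CPM against 18.1, 24.0, 41.1 and 46.6 CPM. Cyp2a12 fell less and with little spread, from 609 ± 55.6 to 356 ± 8.52 CPM (SD, n = 4; edgeR adjusted p = 0.00367), and Cyp2b9 from 630 ± 60.8 to 351 ± 46.9 CPM (SD, n = 4; edgeR adjusted p = 0.0059). Cyp2b13 (-1.30) and Cyp2c29 (-1.10) lost the call on omission of floxed 1 (edgeR adjusted p = 0.0509 and 0.0562). Nr1i3, which encodes the xenobiotic receptor CAR, measured 1180, 1030, 887 and 948 CPM against 556, 466, 606 and 374 CPM (log2 fold change -1.01, SE 0.16, edgeR adjusted p = 0.00796). Cyp2b10, a classical CAR target, lay between 0.226 and 2.47 CPM in all 8 libraries and was not called (edgeR adjusted p = 0.176). The 10 Cyp2 calls became 4 on omission of floxed 1, 6 on omission of floxed 2 and 20 on omission of floxed 4 and LKO 7. Of 7 tested Cyp3a genes 3 fell and 1 rose (background 4.85% lower and 4.44% higher). Cyp3a11, the main steroid and drug hydroxylase of the subfamily, went from 1060 ± 204 to 529 ± 127 CPM (SD, n = 4), with the call lost on omission of floxed 1, floxed 2 or LKO 5 (up to 0.0536). Cyp3a16 (-3.22) lost it on omission of floxed 1, LKO 6 or LKO 8 (up to 0.0657), and likewise with robust dispersion (0.0607). The 4 Cyp3a calls became 0 on omission of floxed 1, 1 on omission of floxed 2, LKO 5 or LKO 6 and 2 on omission of LKO 8.

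Transporters move conjugates and bile acids across the hepatocyte membrane. Of 25 tested 7 fell and 1 rose (median -0.17, background 4.85% lower and 4.44% higher). Abcc2, the canalicular pump for conjugated bilirubin, measured 671, 848, 772 and 644 CPM in floxed 1 to 4 and 425, 423, 487 and 463 CPM in LKO 5 to 8 (log2 fold change -0.71, SE 0.11, edgeR adjusted p = 0.00823). Slc22a27, an organic anion transporter, went from 48.5 ± 5.18 to 25.2 ± 5.50 CPM (SD, n = 4; edgeR adjusted p = 0.00767). Slc10a1, the bile acid importer NTCP, was not called (714 ± 62.7 against 630 ± 54.9 CPM; SD, n = 4; edgeR adjusted p = 0.286). The 8 calls became 2 on omission of floxed 1, 3 on omission of floxed 2, 4 on omission of LKO 5 or LKO 8 and 5 on omission of floxed 3 or LKO 6. Bile acid synthesis genes had 1 of 18 members higher and 1 lower, near the background (4.44% higher and 4.85% lower). Cyp7a1, the rate-limiting enzyme, measured 348, 397, 401 and 194 CPM against 87.1, 33.8, 226 and 40.4 CPM, with LKO 7 above floxed 4, and was not called (edgeR adjusted p = 0.0663). Akr1d1, a reductase of bile acid intermediates, was called lower (292, 275, 253 and 200 CPM against 65.2, 78.8, 168 and 61.0 CPM), and lost the call on omission of floxed 1, floxed 2, LKO 5 or LKO 6 (up to 0.0631). Fgfr4, the receptor through which an intestinal hormone limits bile acid synthesis, rose from 42.0 ± 2.74 to 55.4 ± 3.32 CPM (SD, n = 4) and lost the call on omission of floxed 1 or floxed 2 (up to 0.0545). The pair of bile acid synthesis calls became 0 on omission of floxed 1 or floxed 2, 1 on omission of LKO 5 or LKO 6, 6 on omission of LKO 7, and 1 higher and 6 lower on omission of floxed 4 and LKO 7.

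The unfolded protein response raises chaperones of the endoplasmic reticulum through the factors XBP1, ATF6 and ATF4, and the integrated stress response acts through ATF4. Of 30 tested genes 10 rose and 0 fell (background 4.44% higher), and 29 had a log2 fold change above 0 (median 0.43). Manf, a secreted chaperone cofactor, measured 34.3, 35.8, 45.2 and 43.6 CPM in floxed 1 to 4 and 71.0, 75.9, 55.9 and 85.6 CPM in LKO 5 to 8 (log2 fold change 0.86, SE 0.14, edgeR adjusted p = 0.00888). Sdf2l1, a component of the chaperone complex, measured 7.10, 5.33, 10.7 and 13.2 CPM against 25.2, 27.8, 17.8 and 27.9 CPM (edgeR adjusted p = 0.0123). Hspa5, the chaperone BiP, measured 371, 436, 531 and 485 CPM against 688, 645, 594 and 913 CPM, and Creld2, a disulfide isomerase, 19.9, 22.8, 24.4 and 30.1 CPM against 37.4, 45.3, 27.5 and 52.4 CPM. LKO 7 was the lowest LKO library and LKO 8 the highest in all 4 genes. Asns (2.69), asparagine synthetase, and Chac1 (1.91), which degrades glutathione, are targets of ATF4 and rose. Atf4 (0.18, edgeR adjusted p = 0.27) and Ddit3 (0.27, edgeR adjusted p = 0.341) were not called. Pdia4 (0.54), Dnajb11 (0.61), Dnajc3 (0.42) and Xbp1 (0.42) were called higher.

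Of these stress-response calls those of Manf and Sdf2l1 held without any 1 library. Hspa5 lost it on omission of floxed 1, floxed 2 or LKO 5, 6 or 8 (edgeR adjusted p up to 0.0991) and with library totals (0.0516). Creld2 lost it on omission of floxed 1, 2 or 3 or LKO 5, 6 or 8 (up to 0.112), with library totals (0.0524) and with robust dispersion (0.0517). The call of Asns was lost on omission of floxed 1, 2 or 3 (up to 0.0694), that of Chac1 on omission of floxed 1, floxed 3 or LKO 6 (up to 0.0606), that of Pdia4 on omission of floxed 1, floxed 2 or LKO 6 (up to 0.0599), that of Dnajb11 on omission of floxed 1, floxed 2 or LKO 5, 6 or 8 (up to 0.0734) and those of Xbp1 and Dnajc3 on omission of floxed 1, 2 or 3 or LKO 5, 6 or 8 (up to 0.0744 and 0.0884). Dnajc3 also lost it with library totals (0.053). The 10 calls became 2 on omission of floxed 1, 3 on omission of floxed 2 or LKO 6, 5 on omission of floxed 3 or LKO 5 or 8, 17 on omission of LKO 7 and 20 higher on omission of floxed 4 and LKO 7.

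The promoters of Hspa5 and Creld2 are shown because both genes rose and both hold the ER stress element, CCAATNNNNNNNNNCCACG, the site that ATF6 binds together with NF-Y. The 250 bases before the start are from RefSeq on GRCm38.p6, written along the gene's strand, with the element in capitals.
Hspa5 (chr2:34771840-34772089, plus strand): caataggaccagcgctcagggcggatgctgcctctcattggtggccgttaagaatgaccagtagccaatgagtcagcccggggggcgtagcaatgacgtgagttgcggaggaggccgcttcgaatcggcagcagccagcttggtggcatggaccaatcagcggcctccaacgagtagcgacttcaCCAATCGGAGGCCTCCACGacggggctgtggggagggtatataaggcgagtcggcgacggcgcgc
Creld2 (chr15:88819396-88819645, plus strand): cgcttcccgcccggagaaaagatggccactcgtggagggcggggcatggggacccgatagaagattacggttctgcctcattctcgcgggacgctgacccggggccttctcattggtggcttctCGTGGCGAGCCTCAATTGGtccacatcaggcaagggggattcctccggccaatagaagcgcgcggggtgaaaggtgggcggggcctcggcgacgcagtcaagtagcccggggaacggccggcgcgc
The element begins 65 bases before the start in Hspa5 and 126 bases before it, in reverse orientation, in Creld2. Searched on both strands from 250 bases before to 50 bases after the start, these letters were found in 8 of the 27 listed genes with a window (29.6%) and in 37 of all 27025 genes with one (0.137%). Of the 8 with a match 3 rose (Hspa5, Creld2 and Dnajc3), and of the 19 without one 6 rose. Hsp90b1 and Calr, chaperone genes that also hold it, measured 657 ± 61.0 against 882 ± 120 CPM and 518 ± 113 against 793 ± 115 CPM (SD, n = 4) and were not called (edgeR adjusted p = 0.0559 and 0.0505).

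Interferon-response genes leaned the other way. Of 43 tested 7 fell and 0 rose (background 4.85% lower), and 37 had a log2 fold change below 0 (median -0.38). Igtp, an immunity-related GTPase, measured 83.3, 70.7, 80.1 and 56.1 CPM in floxed 1 to 4 and 25.1, 39.1, 56.1 and 24.3 CPM in LKO 5 to 8, so that floxed 4 and LKO 7 met at the same level. Gbp3, a guanylate-binding protein, measured 39.8, 44.2, 31.8 and 23.5 CPM against 11.9, 17.0, 24.8 and 10.6 CPM, with LKO 7 above floxed 4. The chemokine genes Cxcl9 (-1.57) and Cxcl10 (-1.31), the peptide-presenting H2-K1 (-0.48) and Gbp2 (-0.94) were also called lower. Cxcl10 lost its call on omission of floxed 1, floxed 3, LKO 5 or LKO 8 (adjusted p by edgeR up to 0.0802). Cxcl9 and Gbp2 lost it on omission of floxed 1, 2 or 3, LKO 5 or LKO 8 (up to 0.101 and 0.103), and Gbp3, Igtp and H2-K1 on omission of floxed 1, 2 or 3 or LKO 5, 6 or 8 (up to 0.0982, 0.103 and 0.0868). The calls of Cxcl9, Gbp3 and Igtp were also lost with robust dispersion (0.0643, 0.0632 and 0.0642). The 7 calls became 0 on omission of floxed 1, 1 on omission of floxed 3 or LKO 5 or 8, 2 on omission of floxed 2, 4 on omission of LKO 6, 12 on omission of floxed 4, 23 on omission of LKO 7, 25 without both of the last, 4 with robust dispersion and 12 with library totals.

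The promoters of Gbp3 and Igtp are shown because both genes were called lower and both hold GAAA, any 2 bases and GAAA, the core of the interferon-stimulated response element. The bases are from RefSeq on GRCm38.p6, 250 before the start and along the gene's strand, with the matches in capitals (in Gbp3 2 overlapping matches in reverse orientation).
Gbp3 (chr3:142559794-142560043, plus strand): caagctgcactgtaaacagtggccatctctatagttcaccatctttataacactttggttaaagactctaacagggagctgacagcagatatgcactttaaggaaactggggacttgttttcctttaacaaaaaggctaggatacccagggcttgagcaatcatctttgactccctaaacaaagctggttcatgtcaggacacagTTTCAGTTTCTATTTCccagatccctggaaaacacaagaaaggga
Igtp (chr11:58199306-58199555, plus strand): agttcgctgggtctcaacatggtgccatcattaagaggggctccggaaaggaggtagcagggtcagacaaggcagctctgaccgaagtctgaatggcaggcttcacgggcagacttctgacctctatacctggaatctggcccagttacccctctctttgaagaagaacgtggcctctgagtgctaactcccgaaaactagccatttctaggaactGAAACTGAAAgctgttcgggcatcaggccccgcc
The first match begins 45 bases before the start in Gbp3 and 34 bases before it in Igtp. On both strands, from 250 bases before to 50 bases after the start, the core was found in 19 of the 33 listed genes with a window (57.6%) and in 3.99% of all genes with one. Of the 19 with a match 4 fell, and of the 14 without one 2 fell.

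Sterol and fatty acid synthesis are driven by the transcription factors SREBP2 and SREBP1. Of 27 tested cholesterol synthesis and SREBP2 genes 16 fell and 1 rose (median -1.12, background 4.85% lower). Of 24 lipogenesis genes 8 fell and 0 rose. Insig1 and Insig2, which encode the proteins that hold SREBPs in the endoplasmic reticulum, moved apart. Insig1 measured 319, 147, 99.5 and 210 CPM in floxed 1 to 4 and 54.8, 52.4, 73.0 and 33.4 CPM in LKO 5 to 8. Insig2 measured 82.4, 90.3, 157 and 201 CPM against 290, 266, 232 and 720 CPM, with LKO 8 far above the rest. Insig2 lost its call on omission of floxed 1, 2 or 3 or LKO 5, 6 or 8 (edgeR adjusted p up to 0.122) and with robust dispersion (0.0896). Much of the spread in the sterol genes lay in the floxed group. Msmo1, a sterol demethylase, measured 256, 45.3, 45.6 and 152 CPM in floxed 1 to 4 and 28.2, 19.2, 21.5 and 13.3 CPM in LKO livers. Mvd, a decarboxylase of the mevalonate pathway, measured 30.3, 3.09, 4.63 and 16.6 CPM against 2.28, 2.61, 2.55 and 1.86 CPM. Floxed 1 and floxed 4 were the high libraries in both genes, while floxed 2 and floxed 3 lay near the LKO levels.

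Tm7sf2 (-1.71), a sterol reductase, held its call in all 8 omissions, as did Insig1. Msmo1 lost it on omission of floxed 1, LKO 6 or LKO 8 (adjusted p by edgeR up to 0.0591), and likewise with robust dispersion (0.056), and Fdps (-2.77) without the same 3 (up to 0.0536) and with limma-voom (0.0628). Idi1 (-2.75) and Mvd (-2.55) lost it on omission of floxed 1 or LKO 5, 6 or 8 (up to 0.0901 and 0.0958), with limma-voom (0.121 and 0.152), with robust dispersion (0.0792 and 0.0794) and on omission of floxed 4 and LKO 7 (0.0622 and 0.0611). The 17 calls became 3 on omission of floxed 1 or LKO 6, 5 on omission of LKO 8, 7 on omission of LKO 5, 10 with limma-voom and 7 with robust dispersion. Of the lipogenic genes Srebf1 went from 211, 197, 140 and 152 CPM to 60.4, 73.8, 67.4 and 32.1 CPM, Thrsp, a lipogenic regulator, from 126 ± 33.2 to 18.3 ± 16.1 CPM, and Acss2, which makes acetyl-CoA from acetate, from 79.5 ± 13 to 42.8 ± 6.35 CPM (SD, n = 4). Fasn (-1.45) lost its call on omission of floxed 1, LKO 5 or LKO 8 (up to 0.0644). The 8 calls became 3 on omission of floxed 1 or LKO 5 and 4 on omission of LKO 8.

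Lipoprotein genes moved in both directions (median 0.03). Of 29 tested 4 fell and 2 rose (background 4.85% and 4.44%), and the 6 calls became 0 on omission of floxed 1 or LKO 5, 1 on omission of floxed 2, 2 on omission of LKO 6, and 5 higher and 8 lower on omission of floxed 4 and LKO 7. Apob was not called (4210 ± 355 against 4580 ± 202 CPM; SD, n = 4; edgeR adjusted p = 0.542). Apoa4 measured 1180, 957, 892 and 3050 CPM in floxed 1 to 4 and 8170, 2590, 1360 and 9110 CPM in LKO 5 to 8, the groups overlapped through floxed 4 and LKO 7, and it was not called (edgeR adjusted p = 0.0908). Its neighbour in the apolipoprotein cluster, Apoa5, was called higher (1370 ± 250 against 2080 ± 220 CPM; SD, n = 4) and lost the call on omission of floxed 1, 2 or 3 or LKO 5, 6 or 8 (edgeR adjusted p up to 0.109). Lipc (-0.92), hepatic lipase, lost it on omission of floxed 1, floxed 2 or LKO 5 (up to 0.0562).

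Genes of fatty acid oxidation showed no common direction. Of 42 tested genes of PPARalpha action, oxidation and ketogenesis 3 rose and 3 fell (median -0.11, background 4.44% and 4.85%). Ppara (218 ± 21.3 against 193 ± 17.9 CPM; edgeR adjusted p = 0.294) and Cpt1a, the gate of mitochondrial oxidation (882 ± 118 against 1130 ± 212 CPM; adjusted p = 0.167) were not called (SD, n = 4 each). Acot3 and Acot4 were the members with the smallest p. The 6 calls became 2 on omission of floxed 1, floxed 3 or LKO 5 or 6, 3 on omission of floxed 2, and 6 higher and 5 lower on omission of floxed 4 and LKO 7.

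Amino acid catabolism had 7 of 39 tested members higher and 3 lower (background 4.44% and 4.85%), and urea cycle genes 2 of 11 higher. Got1, cytosolic aspartate aminotransferase, measured 166, 185, 217 and 214 CPM in floxed 1 to 4 and 700, 391, 352 and 604 CPM in LKO 5 to 8 (log2 fold change 1.39, SE 0.21, edgeR adjusted p = 0.00767). Sdsl, a serine dehydratase, went from 9.90 ± 1.39 to 22.0 ± 3.89 CPM, and Slc25a15, the mitochondrial ornithine carrier, from 288 ± 47.2 to 509 ± 75.3 CPM (SD, n = 4). Tat (1.30), tyrosine aminotransferase, lost its call on omission of floxed 1, floxed 2, floxed 4 or LKO 5, 6 or 8 (edgeR adjusted p up to 0.0954), and Arg1 (0.55), arginase, on omission of floxed 1, 2 or 3 or LKO 5, 6 or 8 (up to 0.104) and with library totals (0.0642). The 10 catabolic calls became 2 on omission of floxed 1 or LKO 5, 3 on omission of floxed 2, 4 on omission of LKO 6 or 8, 5 on omission of floxed 3, and 5 higher and 13 lower on omission of floxed 4 and LKO 7. The pair of urea cycle calls became 1 on omission of floxed 1, 2 or 3 or LKO 5 or 8, 4 on omission of floxed 4, and 3 higher and 2 lower on omission of floxed 4 and LKO 7. In glycogen metabolism 3 of 20 fell and 1 rose (background 4.85% and 4.44%). Gbe1, the branching enzyme, went from 107 ± 5.11 to 76.3 ± 4.01 CPM (SD, n = 4; edgeR adjusted p = 0.00691). The 4 calls became 9 on omission of LKO 7, and 3 higher and 7 lower on omission of floxed 4 and LKO 7. Of 27 genes of insulin, glucagon and glucocorticoid signalling 2 rose and 1 fell, near the background (4.44% and 4.85%). Pik3r1, the regulatory subunit of PI3-kinase, went from 97.0 ± 12.5 to 67.0 ± 3.89 CPM (SD, n = 4; edgeR adjusted p = 0.0136). Pck1 (0.77), the gluconeogenic carboxykinase, lost its call on omission of floxed 1, 2 or 3 or LKO 5, 6 or 8 (up to 0.0788).

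Hepatocytes differ along the lobule, from the portal vein to the central vein. Of 19 tested pericentral genes 5 fell and 1 rose (background 4.85% and 4.44%), and of 17 periportal genes 3 rose and 0 fell. Cyp1a2, a pericentral P450, measured 337, 347, 240 and 202 CPM in floxed 1 to 4 and 95.2, 140, 160 and 92.5 CPM in LKO 5 to 8 (edgeR adjusted p = 0.0138). Nkd1, a Wnt target, went from 10.9 ± 1.02 to 6.5 ± 1.03 CPM (SD, n = 4; edgeR adjusted p = 0.0118). Glul, glutamine synthetase and the defining pericentral gene, was not called and lay higher (1690 ± 103 against 1990 ± 236 CPM; SD, n = 4; edgeR adjusted p = 0.219). On the portal side Cdh1, E-cadherin, measured 13, 14.2, 12.0 and 12.2 CPM against 27.1, 33.2, 38.6 and 22.5 CPM, with LKO 7 highest of all (edgeR adjusted p = 0.00367). The 6 pericentral calls became 2 on omission of floxed 1, floxed 2 or LKO 6 or 8 and 3 on omission of floxed 3 or LKO 5. The 3 periportal calls became 1 on omission of floxed 1, 2 or 3 or LKO 5 or 8, and 4 higher and 1 lower on omission of floxed 4 and LKO 7.

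Of 30 tested hepatocyte transcription factor genes 4 rose and 2 fell (background 4.44% and 4.85%). Nr1i3, given above, was among those that fell. Esr1, the oestrogen receptor, was not called (34.2 ± 5.88 against 30.1 ± 1.93 CPM; SD, n = 4; edgeR adjusted p = 0.337). The 6 calls became 2 on omission of floxed 1, floxed 3 or LKO 5 or 8, 3 on omission of floxed 2 or LKO 6, 10 on omission of LKO 7, and 4 higher and 6 lower on omission of floxed 4 and LKO 7.

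The circadian clock is a loop in which BMAL1, encoded by Arntl, and CLOCK drive the Per, Cry and Nr1d genes and the output factor Dbp. Of 20 tested genes 4 fell and 0 rose (median -0.47, background 4.85% lower). Per2 measured 70.5, 69.0, 40.3 and 51.2 CPM in floxed 1 to 4 and 32.6, 25.1, 32.2 and 14.7 CPM in LKO 5 to 8, and Per3 103, 82.4, 45 and 52.0 CPM against 28.8, 22.6, 33.0 and 3.49 CPM. Arntl measured 1.21, 2.21, 4.66 and 2.76 CPM against 1.75, 3.35, 3.60 and 16.1 CPM, and Dbp 262, 232, 161 and 132 CPM against 109, 80.5, 118 and 14.0 CPM. LKO 8 was thus the highest of the 8 libraries for Arntl and the lowest for Dbp, Per2 and Per3. Arntl, Dbp and Per3 were not called (edgeR adjusted p = 0.259, 0.131 and 0.0721). Per2 lost its call on omission of floxed 1, floxed 2 or LKO 6 (up to 0.0775), Ciart (-2.02), a repressor of the loop, on omission of floxed 1, floxed 2, LKO 6 or LKO 8 (up to 0.0598), and Hlf (-0.71), an output factor, on omission of floxed 1, floxed 2 or LKO 5 or 6 (up to 0.0639). The 4 calls became 1 on omission of floxed 1, floxed 2 or LKO 6, 7 with library totals, 10 on omission of LKO 7, and 1 higher and 10 lower on omission of floxed 4 and LKO 7. The time of day of each collection is not in the labels.

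Iron genes had 6 of 25 tested members higher and 4 lower (background 4.44% and 4.85%). Among the risers 4 (Lcn2, Hpx, Hp and Cp) are also acute-phase genes. Hamp, which encodes hepcidin, the hormone that blocks iron export, was not called (453 ± 199 against 346 ± 93.8 CPM; SD, n = 4; edgeR adjusted p = 0.433). Hamp2 measured 40.1, 115, 164 and 15.4 CPM in floxed 1 to 4 and 1.66, 5.93, 33.7 and 7.98 CPM in LKO 5 to 8, with overlap between the groups (edgeR adjusted p = 0.078). Bmp6, the signal from endothelium that raises hepcidin, was called lower (3.54 ± 0.604 against 1.81 ± 0.385 CPM; SD, n = 4) and lost the call on omission of floxed 1, floxed 2 or LKO 5 or 6 (up to 0.066). Aco1, the iron regulatory protein 1, went from 226 ± 23.6 to 157 ± 8.75 CPM (SD, n = 4; edgeR adjusted p = 0.012). The 10 calls became 3 on omission of floxed 1, 4 on omission of LKO 5 and 5 on omission of floxed 2 or LKO 6.

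Genes of endothelial cells, whose Matr3 alleles the albumin promoter leaves intact, changed as well. Of 18 tested markers of sinusoidal endothelium, the fenestrated lining of liver capillaries, 10 fell and 0 rose (median -0.63, background 4.85% lower). Their summed level was 421 to 489 CPM in floxed and 313 to 408 CPM in LKO livers. Oit3 measured 14.4, 15.2, 14.2 and 16.1 CPM in floxed 1 to 4 and 7.79, 5.55, 9.81 and 6.77 CPM in LKO 5 to 8. Fcgr2b, an immune complex receptor, measured 43.5, 42.3, 43.5 and 41.9 CPM against 15.6, 20.3, 32.0 and 19.4 CPM, and Flt4, a receptor for vascular growth factors, 17.3, 15.1, 15.5 and 16.0 CPM against 9.76, 9, 10.4 and 6.99 CPM. The floxed values, floxed 4 included, were close together in these 3 genes. Clec4g (-0.57) lost its call on omission of floxed 1 (edgeR adjusted p = 0.0501). Stab2, a scavenger receptor that defines the cell type, measured 50.8, 59.8, 59.3 and 56.0 CPM against 53.8, 59.6, 58.3 and 63.9 CPM and was not called. The 10 calls became 3 on omission of floxed 1, 4 on omission of floxed 2 or LKO 5, 6 or 8 and 6 on omission of floxed 3.

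Of 17 tested stellate cell and fibrosis markers 2 fell (background 4.85% lower). Reln, reelin, was among them (72.2 ± 6.36 against 48.8 ± 5.75 CPM, SD, n = 4, edgeR adjusted p = 0.0122). Reln spans 460 kb, so it also counts among the long genes called lower that are described below. The pair of calls became 1 on omission of floxed 1, 2 or 3 or LKO 5 and 4 on omission of LKO 6. None of 18 macrophage markers was called, with sums of 1050 to 1590 CPM in floxed and 1210 to 1800 CPM in LKO livers, but 5 were called on omission of floxed 4, and 6 higher on omission of floxed 4 and LKO 7. Of 8 tested cholangiocyte markers 1 fell (background 4.85% lower) and 7 had a log2 fold change below 0 (median -0.26). The 10 listed markers, tested or not, summed to 40.1 to 57.5 CPM in floxed and 30.7 to 44.7 CPM in LKO livers. Of 19 lymphocyte markers 1 rose, near the background (4.44% higher), while 15 had a log2 fold change below 0 (median -0.29). Their sums were 139 to 213 CPM in floxed and 90.6 to 200 CPM in LKO livers. Both single calls were lost on omission of floxed 1, floxed 2, floxed 3, LKO 5 or LKO 8, the cholangiocyte call also on omission of LKO 6 and with limma-voom, and the lymphocyte call with library totals and with no filter. Only 1 of 8 adipocyte markers passed the filter on low counts, and it was not called.

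**Figure D4:**
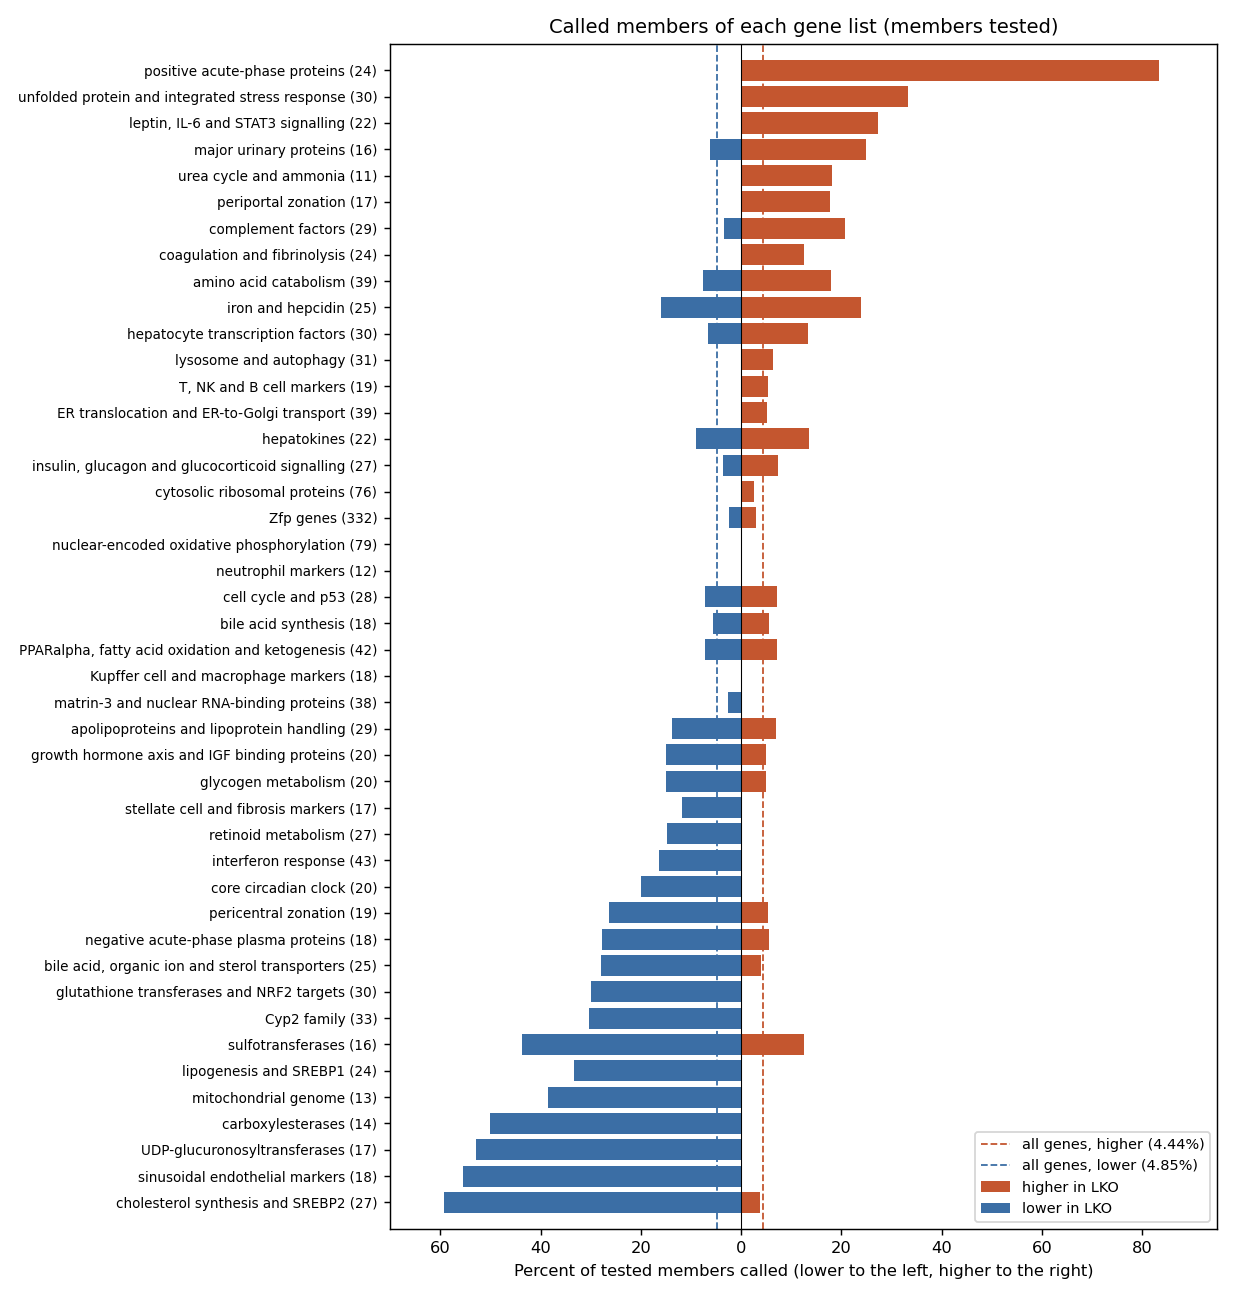
Percent of tested members called lower (blue, to the left) and higher (orange, to the right) in each list with at least 11 tested members, given in brackets. Dashed lines mark the percent over all genes, 4.85% lower and 4.44% higher. Acute-phase genes extend furthest to the right, and cholesterol synthesis, sinusoidal endothelial, glucuronosyltransferase and carboxylesterase lists furthest to the left.

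Of 38 listed and tested genes of nuclear RNA-binding proteins that share functions with matrin-3, Matr3 was the single one called (background 4.44% higher and 4.85% lower). The list does not hold all such genes. Hnrnph3 and Rbm47, RNA-binding protein genes outside it, were called lower and held without any 1 library. The list had 2 calls on omission of floxed 4, LKO 6 or LKO 7, 3 on omission of floxed 4 and LKO 7 and 5 with DESeq2. None of 79 nuclear-encoded genes of oxidative phosphorylation was called, although 71 had a log2 fold change below 0 (median -0.13), and 13 were called lower on omission of floxed 4 and LKO 7, 8 with library totals, 5 on omission of floxed 4 and 3 on omission of LKO 7. Of the 13 protein-coding genes of the mitochondrial genome 5 fell (background 4.85% lower; median -0.42), calls that became 0 on omission of floxed 1, floxed 3 or LKO 5 or 6 and 1 on omission of floxed 2 or LKO 8. Cytosolic ribosomal protein genes had 2 of 76 members higher (background 4.44%), 69 above 0 and a median of 0.13. These calls became 0 on omission of floxed 1, 2 or 3 or LKO 5, 6 or 8, 6 on omission of LKO 7, and 5 higher and 1 lower on omission of floxed 4 and LKO 7. Lysosome and autophagy genes had 2 of 31 members higher (background 4.44%). Ctsl, the protease cathepsin L, went from 469, 533, 552 and 569 CPM in floxed 1 to 4 to 941, 801, 826 and 862 CPM in LKO 5 to 8, and Map1lc3b, an autophagosome protein, from 137 ± 3.98 to 196 ± 23.4 CPM (SD, n = 4). Lysosome calls numbered 6 on omission of floxed 4 or LKO 7 and 11 without both. Of 332 tested Zfp genes, a large family of zinc-finger genes, 10 rose and 8 fell, below the background in both directions. These 18 calls became 3 on omission of floxed 1, 4 on omission of floxed 3, 5 on omission of LKO 5, 6 on omission of LKO 6, 7 on omission of floxed 2, 8 on omission of LKO 8 and 31 on omission of floxed 4 and LKO 7. Major urinary protein genes had 4 of 16 higher and 1 lower (background 4.44% and 4.85%), led by Mup11 (2.86 ± 1.92 against 27.9 ± 13.5 CPM; SD, n = 4; edgeR adjusted p = 0.00635), and their 5 calls became 2 on omission of floxed 2 and 3 on omission of floxed 1.

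Long genes fell more often than short ones. Among genes that span over 300 kb in the annotation, 39 of 315 tested fell (12.4%) and 12 rose (3.81%), and among those under 10 kb 3.69% fell and 4.38% rose. The share that fell was 4.58% at 10 to 30 kb, 5.37% at 30 to 100 kb and 6.45% at 100 to 300 kb, while the share that rose lay between 3.81% and 4.71% in all 5 classes. The median log2 fold change of the longest class was -0.16. Sugct, an enzyme of glutarate metabolism that spans 838 kb on chromosome 13, measured 43.0, 47.4, 48.6 and 41.2 CPM in floxed 1 to 4 and 16.6, 14.4, 25.8 and 17.8 CPM in LKO 5 to 8. Immp2l, a mitochondrial inner membrane peptidase spanning 931 kb on chromosome 12, measured 27.0, 24.4, 20.8 and 19.7 CPM against 13.7, 11.1, 12.8 and 12.7 CPM. Ptprd, a receptor phosphatase spanning 2271 kb on chromosome 4, went from 101 ± 6.64 to 70.9 ± 5.67 CPM and Exoc4, an exocyst subunit spanning 725 kb on chromosome 6, from 32.1 ± 1.25 to 21.8 ± 2 CPM (SD, n = 4). Fam19a2 (-2.01), Eda (-1.02), Oxr1 (-0.48) and Grid1 (-2.57) fell as well, as did Agmo and Cpq. Of the 39 long genes that fell, 14 held the call without any 1 library and 25 did not, and the 10 named here were taken from those that held. Holding the call was thus a condition of their choice, as was no overlap between the groups, which 37 of the 39 showed.

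The difference between long and short genes was present with each library left out, while the counts moved. Of genes over 300 kb 15 fell on omission of floxed 1, 18 on omission of floxed 2, 19 on omission of floxed 3, 16 on omission of LKO 5, 19 on omission of LKO 6 and 20 on omission of LKO 8, 4.64% to 6.23% of them, against 1.23% to 2.32% of shorter genes in the same fits. Without floxed 4, on omission of LKO 7 and without both the share was 12.5%, 13.1% and 15.6%, against 6.08%, 7.67% and 9.68% of shorter genes. Span here is a property of the annotated gene, introns included, and counts of unspliced RNA within introns are not separated in the table.

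**Figure D5:**
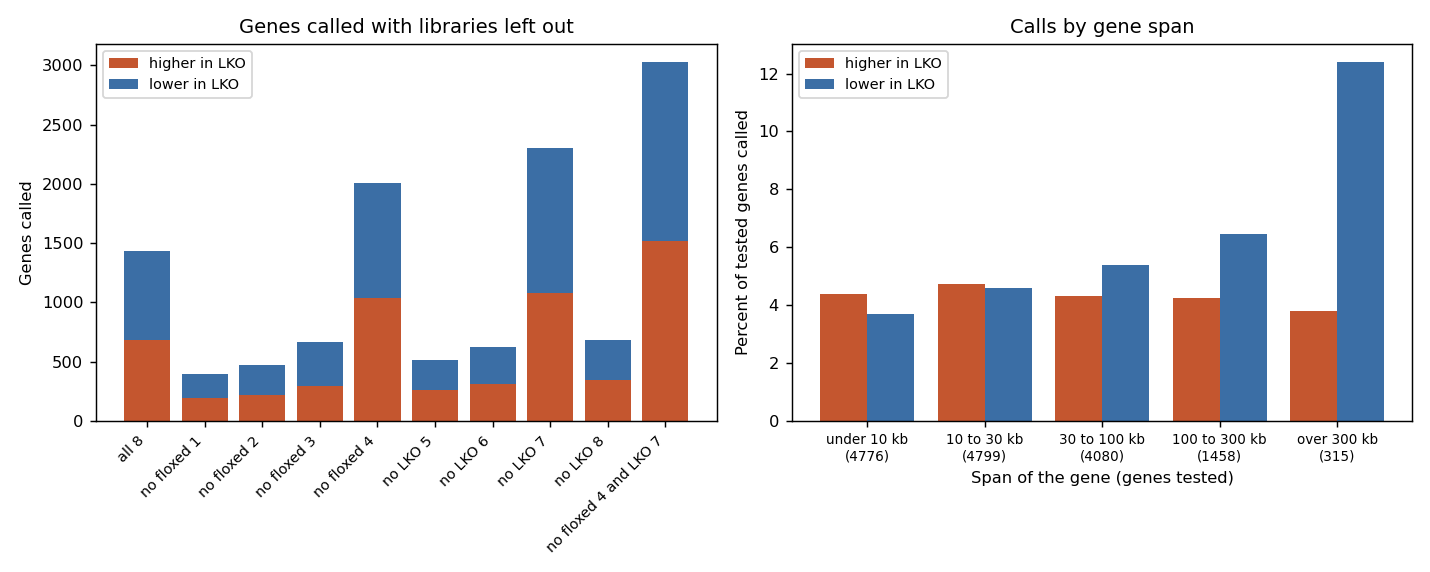
Left, genes called higher (orange) and lower (blue) with all 8 libraries and with libraries left out, from 396 on omission of floxed 1 to 3028 on omission of floxed 4 and LKO 7. Right, percent of tested genes called in each direction by the span of the gene, with the number tested in brackets, where the share that fell rose from 3.69% under 10 kb to 12.4% over 300 kb.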

How the data were processed

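Poly(A) RNA of liver was extracted with TRIzol and made into directional libraries by Novogene, as the labels' protocols state. The authors deposited whole-number counts per Ensembl gene for 8 females in 1 table, which were used as given. The build was mm10 per the submitters' processing notes, and the aligner, the counting program and its strand setting are not given in the sources used here. Symbols and coordinates came from GENCODE M21, which named 24829 of 24840 identifiers, and 0.000707% of counts lay in the rest. Promoter windows came from RefSeq on GRCm38.p6.

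The quasi-likelihood test of edgeR 4.0.16 (R 4.3.3) was run after TMM scaling on genes that passed filterByExpr with a minimum count of 10 and a minimum total of 15. Calls needed an adjusted p under 0.05 (Benjamini-Hochberg), and all SEs are of the edgeR log2 fold change. The alternatives were median-of-ratios, upper quartile and library-total scaling, DESeq2 1.42.0, limma-voom (limma 3.58.1), no filter on low counts, at least 1 CPM in 4 libraries, robust dispersion, omission of each library, and, added after the data were seen, omission of floxed 4 and LKO 7 together. Each library is 1 mouse, and the labels call LKO mice littermates without saying which mice shared a litter.

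Named by rule were the 25 largest fold changes, the 15 smallest p and the 10 largest differences in share of counts in each direction, taken from calls whose groups did not overlap and whose mean log2 CPM was 1 or more. Predicted and clone-named genes (137 of those called) were counted and not named. From each list described, called members with small p and first-listed members were named. The genes over 300 kb, the pairs of neighbours and the clock and neutrophil genes outside these rules were chosen after their values were seen, as were the motifs printed. The comparison and the 52 gene lists were chosen with earlier results of these data known. On counts simulated for this comparison over 15432 genes, 34% of 1.5-fold and 83% of 2-fold changes were recovered, and 4.88% of the calls made were false. The simulation changed a smaller share of genes than was called in the data. It also gave all genes a common dispersion and held no outlying libraries, so recovery in the real libraries can differ. Some genes named by these rules are not reported here.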

Additional observations from a re-analysis of the deposited data

Results flagged for a closer look

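Within a group of 4, 1 library lay far from the other 3 in 21 of 428 groups tested. These were the genes printed here, and the total counts, mitochondrial share and first-component scores of the libraries, in each genotype. About 5% of groups would do so by chance, and the number flagged was near that share. The values below are therefore listed for inspection and cannot be read as traits of a library. LKO 7 stood towards the floxed level in Ttr (3060 CPM against at most 2040 CPM in the other LKO livers), C8g (282 against at most 187 CPM), Akr1d1 (168 against at most 78.8 CPM), Afmid (20 CPM) and Exoc4 (24.8 CPM), and was lowest of the LKO livers in Calr (623 CPM). Floxed 4 stood towards the LKO level in Kcnt2 (1.95 CPM), Syt12 (4.27 CPM), Adcy1 (1.22 CPM) and Apoa4 (3050 CPM, against at most 1180 CPM in the other floxed livers).

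LKO 8 was high in Fgf21 (138 CPM against at most 47.8 CPM), Insig2 (720 against at most 290 CPM), Arntl (16.1 against at most 3.60 CPM) and Npnt (13.4 CPM). LKO 5 was high in Pros1 (148 CPM against at most 108 CPM), and LKO 6 was low in Ugp2 (222 CPM against at least 256 CPM). Floxed 1 was high in Slc10a1 (807 CPM against at most 696 CPM) and Eme2 (12.6 CPM), and floxed 2 was high in Hlf (112 CPM). Floxed 3 was low in Sult2a3 (57.3 CPM) and Gdf15 (24.8 CPM).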

How the results depend on the processing

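Called genes numbered 1433 (685 higher, 748 lower). DESeq2 called 2415 (1195 higher, 1220 lower), which included all 1433. With library totals as the scaling 449 were higher and 1240 lower, and the median log2 fold change of all genes was -0.08. Without floxed 4 and LKO 7 together 3028 were called (1514 higher, 1514 lower), 1337 of them among the 1433. Both libraries were picked by their scores in these data, so the larger number is no further evidence of a difference. Omission of 1 library gave 396 to 2300 calls, 193 to 1079 higher and 203 to 1221 lower. The cause was not tested. DESeq2 also gave more calls in several lists (interferon 16, stress response 18, complement 12, Cyp2 16, clock 10). Genes given above as not called that DESeq2 called were, besides C3, Calr (adjusted p = 0.00588), Hsp90b1 (0.00681), Fgf21 (0.0293) and Hamp2 (0.0481), and Cyp7a1 and Apoa4 were called by edgeR without LKO 7 (0.00275 and 0.024). The other 6 alternatives gave 1341 to 1447 calls. Matr3 held its call in every alternative (adjusted p up to 0.0176 on omission of 1 library). No paired analysis was possible because floxed mice are numbered 1 to 4 and LKO mice 5 to 8, so no number is shared, and the labels do not say which of the littermates belong together. At this depth, genes at or below 1 CPM rest on about 30 counts a library or fewer. In the simulation of 4 mice a group, with a common dispersion, few changed genes and no outlying libraries, most changes of 1.5-fold were missed.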

Other observations

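Some called genes lie next to each other, a set of pairs picked after their values were seen. Dnaic1 and Enho on chromosome 4 overlap by 15 bases on opposite strands, and both rose (log2 fold change 3.36 and 1.53). Tk1 and Afmid on chromosome 11 overlap by 169 bases on opposite strands, and both were called lower (-2.11 and -2.01), with the calls lost on omission of single libraries as given above. As the strand setting of the counting is not given, reads in the overlap of either pair could be counted for the partner. Adcy1 and Igfbp1, both higher (4.22 and 3.30), lie 19.3 kb apart on chromosome 11, with Adcy1 losing its call without floxed 1 (edgeR adjusted p = 0.0511). C8b and C8a lie 11.1 kb apart on chromosome 4 and both rose. Hnf4aos and Hnf4a overlap by 34913 bases on opposite strands and moved in opposite directions (-1.86 and 0.52).

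By chromosome, the share of tested genes called was between 7.42% (chromosome X) and 11.9% (chromosome 18), against 9.29% over all. Sterol genes split the floxed group. Idi1, an isomerase of the mevalonate pathway, measured 70.3, 8.62, 10.3 and 54.4 CPM in floxed 1 to 4, and Msmo1 and Mvd showed the same order of high (floxed 1 and 4) and low (floxed 2 and 3) libraries. Floxed 2 and 3 did not lie towards the LKO group on the first principal component.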
